A study of Homo sapiens with 120 samples.

Results

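Single CFPAC-1 cells on microrafts were sequenced in 2 rounds, and the 10 libraries of these 1-cell rafts, of 120 libraries in the series, are compared here: 5 from round 2 and 5 from round 1. CFPAC-1 is an established human pancreatic ductal adenocarcinoma line, and a microraft is a small releasable culture element of an array that can be picked with the cell on it. All 10 libraries came from untreated cells, were labelled as holding 1 cell of unknown proliferative state, and were made from total RNA with the SMARTer and Nextera XT kits. The round 2 libraries carry replicate numbers 2, 3, 5, 6 and 8 and the round 1 libraries 9, 12, 13, 14 and 15, and values per library are given below in that order. The titles divide these libraries into 2 named sets, but no title of a raft states a round, so which set is round 2 and which is round 1 was inferred from the names of the sets. Rafts with 2 cells (5 libraries in each round), empty rafts (5 in each round) and 4 bulk libraries of the same untreated line serve as comparison.

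The deposited values were FPKM, in which fragments are divided by the length of the transcript and by the library's total. Without counts, sequencing depth cannot be stated for any of the 10 cells and counting error cannot be bounded. Each library is a single cell and the labels name no culture, so each round counted as 1 sample. No p-value was therefore calculated, every SD below describes the spread between 5 cells of a round, and round, library pool and culture cannot be told apart. A gene was called detected at 1 FPKM or more, and 9330 of 30504 rows were detected in at least 3 of the 10 libraries and form the background of every count. A difference is the mean of log2(FPKM + 1) in round 2 minus that in round 1, so it understates the change of genes with low values, and a difference of 2 is a change of 4 times.

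The line was checked against markers of its tissue. Of 9 epithelial and ductal markers in the table, 6 to 8 were detected in each round 2 library and 7 to 8 in each round 1 library, with summed FPKM of 1971 to 4815 in round 2 and 1725 to 4832 in round 1. CFTR, a chloride channel of ductal cells, was listed at 0 in every library except round 1 replicate 14, where it had 1.81 FPKM. All 4 endocrine markers were listed at 0 in all 10 libraries, and so were the collagens COL1A1, COL1A2 and COL3A1. Marker sums were 0 to 122.6 in round 2 and 0.62 to 85.9 in round 1 for 7 fibroblast genes, mainly PDGFRA, and 0 to 20.5 in round 2 and 0 to 4.67 in round 1 for 7 blood cell genes. Sums over 6 acinar genes, of which only CELA3A was listed above 0, were 0 to 26.7 in round 2 and 0 to 8.80 in round 1. Those over 4 endothelial genes were 0 to 9.10 in round 2 and 0 to 0.90 in round 1. Keratinocyte genes, a check for skin contact, summed to 108 to 407 in round 2 and 122 to 377 in round 1, with KRT1, KRT14 and LOR listed at 0. Round 1 replicate 14 stood apart from its round. It had a mean Spearman rho of 0.695 with the other libraries of its round across genes detected everywhere, against 0.762 to 0.774 for the other 4 of round 1, and the main results are also given without it.

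Cells in culture divide without synchrony, so single cells are caught at different points of the cell cycle. Genes of DNA replication are transcribed around the start of S phase, while cyclin B, Polo-like kinase and their partners are transcribed late, in G2, and are destroyed or shut off as mitosis ends. Promoters of the late genes are known for CCAAT boxes and for a cell cycle homology region, often written TTTGAA, to which the DREAM repressor complex binds. Epithelial tumour cells also carry an inflammatory and secretory programme driven partly by NF-kB, a transcription factor that induces chemokines, LCN2 and its own inhibitor NFKBIA, and whose sites contain GGG and TTCC with any 3 bases between them. A transcript present in few copies may be missed in one cell and caught in another, which is why detection and programme are described separately below.

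The 4 promoters shown are those of 2 late cell cycle genes and 2 NF-kB genes described below, chosen to show where these letters lie, in the RefSeq GRCh38.p14 window that runs from 250 bases before to 50 bases after the annotated start, written 5′ to 3′ on the gene's strand. They are PLK1 (chr16:23678639-23678938, plus strand), CCNB2 (chr15:59104896-59105195, plus strand), CXCL2 (chr4:74099146-74099445, minus strand) and NFKBIA (chr14:35404700-35404999, minus strand). Capitals mark matches on the printed strand or its complement to TTTGAA and CCAAT in the first pair and to the NF-kB motif, GGG and TTCC with any 3 bases between them, in the second.
PLK1: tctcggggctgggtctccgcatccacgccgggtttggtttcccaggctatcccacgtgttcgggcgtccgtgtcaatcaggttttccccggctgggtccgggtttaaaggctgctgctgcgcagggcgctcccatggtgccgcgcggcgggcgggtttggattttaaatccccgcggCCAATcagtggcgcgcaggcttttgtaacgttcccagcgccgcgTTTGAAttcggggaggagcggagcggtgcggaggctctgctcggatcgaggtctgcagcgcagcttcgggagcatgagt
CCNB2: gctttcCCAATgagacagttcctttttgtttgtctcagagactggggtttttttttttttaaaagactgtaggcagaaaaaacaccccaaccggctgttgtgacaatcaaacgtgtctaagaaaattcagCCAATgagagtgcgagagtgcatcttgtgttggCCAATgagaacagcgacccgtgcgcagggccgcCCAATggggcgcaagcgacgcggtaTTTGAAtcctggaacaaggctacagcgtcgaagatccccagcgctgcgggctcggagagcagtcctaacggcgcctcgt
CXCL2: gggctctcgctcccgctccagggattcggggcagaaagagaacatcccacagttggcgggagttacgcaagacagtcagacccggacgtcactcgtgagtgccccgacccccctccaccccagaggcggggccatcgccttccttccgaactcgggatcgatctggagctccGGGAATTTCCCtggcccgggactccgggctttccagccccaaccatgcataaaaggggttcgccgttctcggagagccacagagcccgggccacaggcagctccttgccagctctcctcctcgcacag
NFKBIA: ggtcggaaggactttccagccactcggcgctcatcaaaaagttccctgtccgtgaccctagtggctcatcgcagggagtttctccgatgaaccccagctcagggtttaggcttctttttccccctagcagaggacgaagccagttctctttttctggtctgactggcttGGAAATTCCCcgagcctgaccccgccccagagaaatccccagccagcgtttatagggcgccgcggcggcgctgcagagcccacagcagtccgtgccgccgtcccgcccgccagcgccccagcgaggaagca
TTTGAA began 29 bases before the start in both PLK1 and CCNB2. CCAAT began 73 bases before it in PLK1, and 244, 120, 87 and 54 bases before it in CCNB2. In CXCL2 the matches on the 2 strands overlapped and began 78 and 77 bases before the start, and in NFKBIA the match began 81 bases before it. Of the 59 late cell cycle genes that passed the detection filter 48 had a promoter in the table, and 33 of these (68.8%) held TTTGAA on either strand, against 15.4% of all 27305 promoters of the same length and 9.65% of 6634 promoters of genes that passed the filter. CCAAT was held by 34 of the 48 (70.8%), against 35.7% of all promoters. The 49 promoters of replication genes held TTTGAA in 2 cases (4.08%) and CCAAT in 29 (59.2%). The NF-kB motif was held by 9 of 14 NF-kB promoters (64.3%), against 6.47% of all promoters and 7.91% of those that passed the filter. These matches describe the letters in the window and say nothing about what bound there.

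Far fewer genes were detected per cell in round 2 than in round 1. At 1 FPKM the round 2 cells had 5609, 6127, 5194, 4804 and 5639 genes (5475 ± 500, SD, n = 5), against 7579, 8217, 8447, 7655 and 8461 in round 1 cells (8072 ± 427, SD, n = 5). The rounds did not overlap, and the difference of -2597 genes was over 5 times either SD. Counting every row above 0 widened the difference to -3771 genes, with 5514 ± 511 in round 2 and 9285 ± 809 in round 1. Raising the threshold narrowed it: to -1448 genes at 5 FPKM, with 4880 ± 385 in round 2 and 6327 ± 453 in round 1, and to -851 at 10 FPKM, with 4297 ± 291 in round 2 and 5148 ± 436 in round 1. At 20 FPKM the rounds overlapped, at 3280 to 3698 genes in round 2 and 3232 to 3981 in round 1. At 100 FPKM round 2 had the larger number, 1217 ± 41.5 genes, against 1089 ± 88.8 in round 1. The difference in these counts was thus widest at low thresholds, but such counts do not show which genes were missed. Of 2152 genes with a mean bulk value of 20 to 100 FPKM, 69.7 ± 4.3% reached 10 FPKM in round 2. In round 1, 79.9 ± 4.7% did (SD, n = 5 each).

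**Figure D1:**
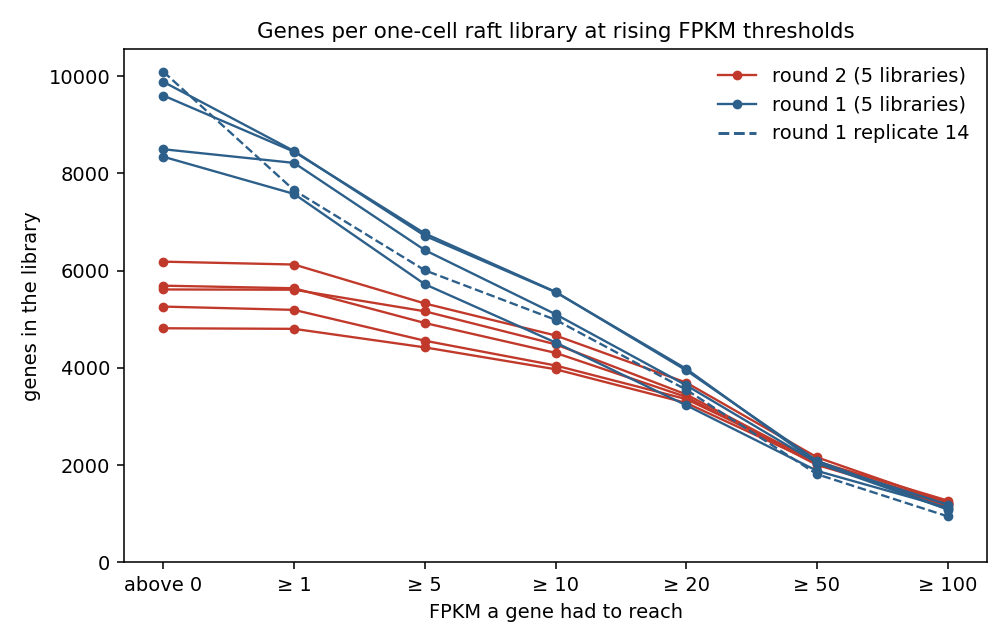
Number of genes at or above each FPKM threshold (x axis, in steps from above 0 to 100 FPKM), 1 line per 1-cell raft library, with 5 libraries of round 2, 5 of round 1 and round 1 replicate 14 dashed. The rounds are apart at 1 FPKM (4804 to 6127 genes in round 2 and 7579 to 8461 in round 1) and overlap at 20 FPKM.

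The lowest values recorded differed in the same way. Multiplying each FPKM by transcript length in kilobases gives a quantity meant to weigh a single fragment alike for every gene of a library. The length was the median over a gene's annotated transcripts and may differ from the length behind its FPKM. This quantity is therefore approximate. The 5th percentile of this quantity over values above 0 was 3.99, 2.41, 2.55, 3.97 and 2.59 in round 2, against 0.821, 1.40, 0.650, 0.231 and 0.514 in round 1. All 5 floors of round 2 lay above all 5 of round 1. In round 2, 98.7 to 99.9% of the rows above 0 were at 1 FPKM or more, against 75.8 to 96.7% in round 1. When every library was counted above the highest of these floors, 3.99, the round 2 cells had 4138 to 5120 genes and the round 1 cells 5667 to 6515, a difference of -1518 genes. At 3 times that floor the difference was -775 genes, with 3533 to 4199 in round 2 and 4141 to 5013 in round 1. The rounds overlapped at that level. Depth itself is not in the files, and its part in the difference was not tested. The share of all FPKM held by the 10 most abundant genes was 17.5 ± 3.05% in round 2 and 17.03 ± 5.41% in round 1 (SD, n = 5 each).

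Detection rose in both rounds with abundance in bulk RNA, which the detection rule did not use. Of 4134 genes with a mean bulk value of 1 to 5 FPKM, 21.01 ± 3.7% were detected per cell in round 2 and 42.8 ± 3.6% in round 1 (SD, n = 5 each). Of 3325 genes at 5 to 20 FPKM in bulk, 47.4 ± 5.7% were detected in round 2 and 70.4 ± 4.6% in round 1. Of 2152 genes at 20 to 100 FPKM the shares were 75.9 ± 4.9% in round 2 and 89.1 ± 4.5% in round 1. Among the 1156 genes at 100 FPKM or more, round 2 cells detected 94.5 ± 1.9% and round 1 cells 97.9 ± 1.8%. The lowest of 5 round 1 cells detected a larger share than the highest of 5 round 2 cells in the first 3 classes, whereas the rounds overlapped in the most abundant one (91.3 to 96.1% in round 2 and 94.6 to 99.0% in round 1). In percentage points the gap between the rounds was thus narrowest for the genes most abundant in bulk. Detection was close to its limit of 100% there, so the gap had little room.

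**Figure D2:**
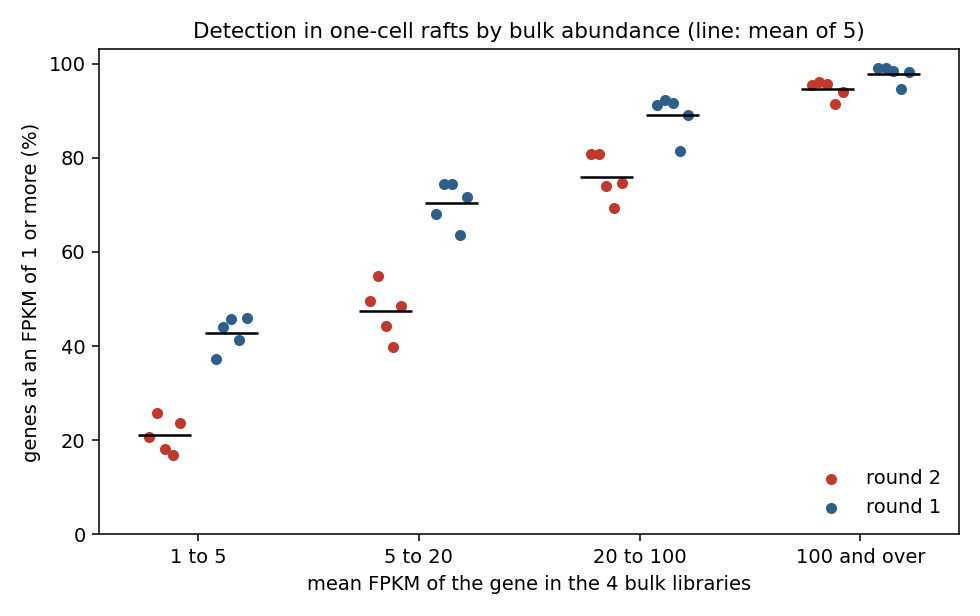
Percentage of genes detected (y axis) in each 1-cell raft library, for 4 classes of mean bulk FPKM (x axis), with points for the 5 libraries of round 2 left of the 5 of round 1 and a line at their mean. From 1 to 5 FPKM the mean was 21.01% in round 2 and 42.8% in round 1, and from 100 FPKM on it was 94.5% in round 2 and 97.9% in round 1.

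Gene by gene, most differences in detection ran in the same direction. Of the 9330 genes, 914 (9.80%) were detected in more round 2 than round 1 cells, 5617 (60.2%) in fewer round 2 cells, and 2799 in equally many. A gap of at least 3 cells was found for 36 genes (0.386%) in favour of round 2 and for 1755 (18.8%) in favour of round 1. No gene was detected in all 5 round 2 cells and in none of round 1, while 79 genes were detected in no round 2 cell and in all 5 of round 1. Their median bulk level was 3.87 FPKM. Of these 79, 30 (37.97%) reached 1 FPKM in at least 1 empty raft of round 1, against 19.7% of all 9330 genes. Empty rafts of round 2 held 9 to 41 genes at 1 FPKM and those of round 1 held 1060 to 1301, and the part of this background in the 1-cell difference was not tested. FPKM is relative to each library's own total, so values of an empty raft and of a cell are not comparable as amounts.

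PBK, PLK1, LYSMD3, ATF2 and CCDC50 were detected in all 5 round 2 cells and in 1 or 2 round 1 cells. An empty raft of round 1 held 55.2 FPKM of CCDC50. PBK, a mitotic kinase also called TOPK, was at 95.4, 78.5, 188, 73.9 and 225 FPKM in round 2, against 124, 0, 71.4, 0 and 0 FPKM in round 1. ATF2, a basic leucine zipper transcription factor, was detected in 5 round 2 cells and 2 round 1 cells, with 13.2, 29.9, 9.97, 8.37 and 30.6 FPKM in round 2 and 12.2, 0, 0, 0 and 5.49 FPKM in round 1. CCDC50 was detected in 5 round 2 cells and 1 round 1 cell. ARHGDIB, which holds small GTPases in the cytosol, HOXB2, a homeodomain transcription factor, ATP11B, GLMN and ZRSR2 were each detected in 4 round 2 cells and 1 round 1 cell. In the other direction, FKBP11, a prolyl isomerase of the endoplasmic reticulum, was listed at 0 in every round 2 cell and at 33.8, 30.8, 30.4, 1.19 and 38.2 FPKM in round 1. GALNT7, an enzyme of O-linked glycan synthesis, was listed at 0 in all of round 2 and at 12.1, 20.01, 16.9, 19.6 and 23.99 FPKM in round 1. UTP3, a nucleolar protein of ribosome assembly, was at 0 in round 2 and at 25.4, 25.5, 8.84, 12.7 and 6.46 FPKM in round 1. Further genes at 0 in all of round 2 and detected in all of round 1 were ANKRA2, DUSP22, GNG11, MED24, PDE6B, WSB1 and YIPF1. In an empty raft of round 1, PDE6B reached 398 FPKM, WSB1 201 FPKM and FKBP11 79.7 FPKM.

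Most genes had the lower mean in round 2. The median difference over the 9330 genes was -0.59, and -0.64 without round 1 replicate 14. In all, 2940 genes (31.5%) were higher in round 2 and 6390 were lower. Past 2 on the log2 scale, 172 genes (1.84%) were higher and 1280 (13.7%) lower in round 2. After quantile normalization, which gives every library the same distribution of values, 280 genes were higher and 711 lower by as much. The rounds did not overlap for 35 genes higher in round 2 (0.375%) and for 217 lower (2.33%), of which 18 (0.193%) and 164 (1.76%) also passed 2. When values under the shared floor were set to that floor, 75 of 8337 genes with a known length were higher by 2 or more (0.9%) and 324 lower (3.89%), and the median difference was -0.16. Restricted to the 1843 genes detected in all 10 cells, the median turned to 0.17. A lower or higher value of a gene in round 2 is read below beside these 3 backgrounds.

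Of the genes higher in round 2 with no overlap, ERCC8 had the largest difference. ERCC8, a subunit of the ubiquitin ligase of transcription-coupled repair, had 94.3, 42.4, 124, 38.3 and 53.9 FPKM in round 2 and 12.6, 0, 0, 9.53 and 16.4 FPKM in round 1, a difference of 3.76. POLR1C, a subunit shared by RNA polymerases I and III, had 228, 222, 189, 183 and 96.7 FPKM in round 2 and 3.8, 87.6, 28.96, 42.6 and 13.01 FPKM in round 1, a difference of 2.89. POLR1C was detected in every cell of both rounds, so no undetected value entered its difference. RIOK1, a kinase of small ribosomal subunit maturation, had 71.6, 90.3, 128, 59.96 and 63.9 FPKM in round 2 and 14.99, 49.8, 49.7, 0 and 0 FPKM in round 1. METTL13, a methyltransferase of elongation factor eEF1A, had 48.3, 17.6, 40.3, 52.9 and 39.02 FPKM in round 2 and 0.72, 0, 11.5, 17.4 and 0 FPKM in round 1. Both genes were listed at 0 in 2 cells of round 1. Single empty rafts of round 1 held up to 73.2 FPKM of ERCC8 and 74.4 FPKM of METTL13.

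BLZF1, MTHFD2, NARS and SEC22B had differences of 2.59 to 2.85. MTHFD2, the mitochondrial folate enzyme, had 112, 189, 147, 227 and 135 FPKM in round 2 and 71.4, 62.9, 20.9, 0 and 89 FPKM in round 1, a difference of 2.68 that was 1.52 without round 1 replicate 14. NARS, the cytosolic asparaginyl-tRNA synthetase, had 86.4, 188, 132, 104 and 70.7 FPKM in round 2 and 13.7, 39.6, 52.6, 33.7 and 0.49 FPKM in round 1, a difference of 2.66 that was 1.77 without round 1 replicate 15. SEC22B, a SNARE of traffic between endoplasmic reticulum and Golgi, had 123, 125, 56.1, 182 and 119.7 FPKM in round 2 and 34.8, 34.6, 43.2, 25.4 and 0.65 FPKM in round 1, a difference of 2.59 that was 1.71 without round 1 replicate 15. BLZF1, a golgin-binding protein, differed by 2.85, LYSMD3 by 3.21 and the zinc finger gene ZNF468 by 3.17. ATG5, which conjugates to ATG12 in autophagy, overlapped in 1 round 1 cell only, with 75.8, 54.5, 86.9, 80.8 and 31.7 FPKM in round 2 and 3.37, 6.49, 10.04, 35.99 and 1.34 FPKM in round 1. DDIT4, a stress-induced inhibitor of mTORC1, had 93.3, 275, 24.8, 111 and 52.9 FPKM in round 2 and 0, 60.4, 8.98, 22.4 and 0 FPKM in round 1, with overlap.

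LCN2, IGFBP3, C9orf16 and COL18A1 had the largest differences among the genes lower in round 2 with no overlap. LCN2, an iron-siderophore binding protein of inflamed epithelium, had 67.3, 15.7, 30.9, 0 and 0 FPKM in round 2 and 669, 161, 1179, 3006 and 1158 FPKM in round 1, a difference of -6.70, or -6.25 without round 1 replicate 14 and -5.67 with the shared floor. It stood at 638 to 884 FPKM in the bulk libraries, above every round 2 cell. IGFBP3, which binds insulin-like growth factors outside the cell, had 0, 0, 0, 0 and 15.1 FPKM in round 2 and 77.6, 93.1, 385, 76.4 and 578 FPKM in round 1, a difference of -6.58. COL18A1, the basement membrane collagen from which endostatin is cut, had 0, 0, 33.97, 0 and 0 FPKM in round 2 and 71.3, 54.5, 111, 93.3 and 71.4 FPKM in round 1, a difference of -5.28. For these 3 genes 2 to 4 of the 5 round 2 cells were listed at 0. C9orf16 had 19.5, 0, 0, 0 and 0 FPKM in round 2 and 69.6, 23.2, 96.5, 73.8 and 171 FPKM in round 1, a difference of -5.33.

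The remaining genes of this end of the ranking were at 0 in all round 2 cells, so no fold is given. ACP2, lysosomal acid phosphatase, was at 31.4, 21.2, 21.1, 28.04 and 26.01 FPKM in round 1, an even level across cells. MED24, a Mediator subunit, was at 42.7, 4.63, 25.3, 56.6 and 32.7 FPKM and DMAP1, a subunit of a histone acetyltransferase complex, at 21.9, 29.02, 11.9, 33.4 and 23.9 FPKM in round 1. WSB1 was at 14.3, 18.8, 20.7, 92.9 and 10.2 FPKM and ANKRD36B at 57.5, 24.1, 7.78, 17.5 and 74.8 FPKM in round 1. ATP9B, a phospholipid flippase, was at 17.2, 20.3, 24.6, 32 and 50.8 FPKM in round 1. Empty rafts, libraries of far fewer genes, reached 11160 FPKM for it in round 2 and 904 FPKM in round 1.

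**Figure D3:**
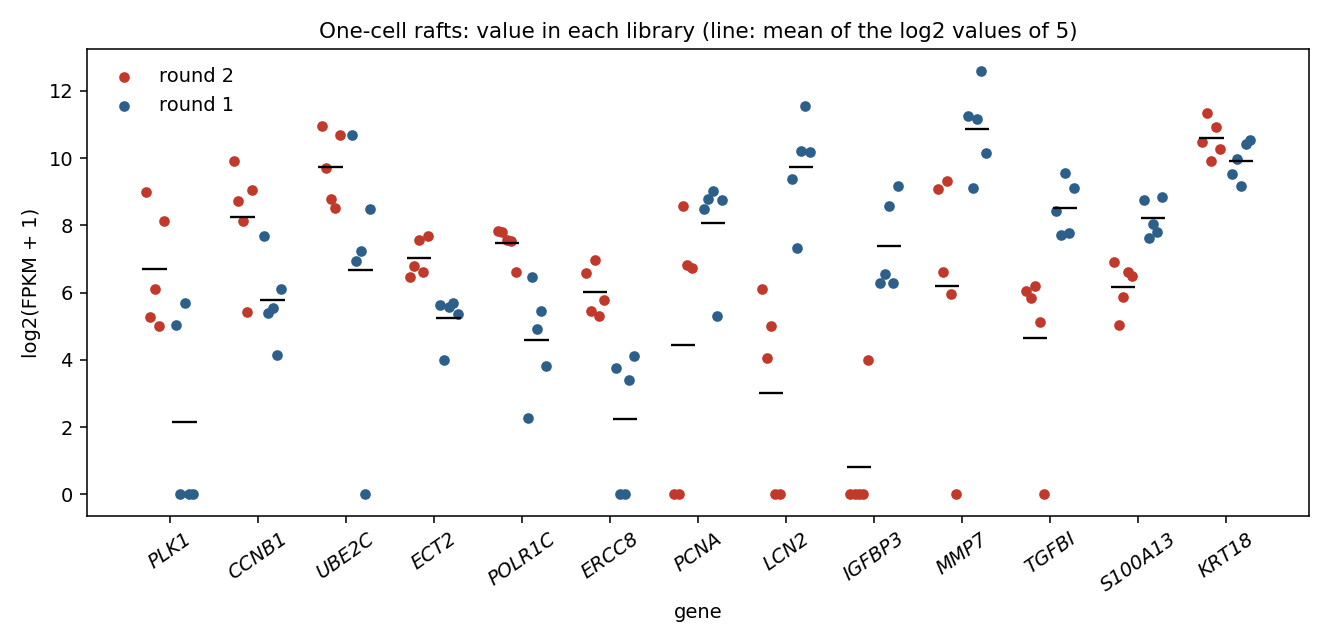
FPKM on a log2(FPKM + 1) scale (y axis) of 13 genes in each 1-cell raft library, with 5 points for round 2 left of 5 points for round 1 and a line at the mean of each. LCN2 is at 0 to 67.4 FPKM in round 2 and 161 to 3006 FPKM in round 1, and POLR1C at 96.7 to 228 FPKM in round 2 and 3.80 to 87.6 FPKM in round 1.

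The 1843 genes detected in all 10 cells (19.8% of the 9330) have no value below 1 FPKM. Floors were higher in round 2, so genes low in round 2 could drop out of this set more easily. The effect of this on the differences was not tested. Differences in this set are given after subtraction of their median of 0.17, and had an SD over genes of 0.72, against a median SD between cells of 0.85 in round 2 and 0.77 in round 1 (0.67 without replicate 14). The median difference was 0.11, 0.22 and 0.18 from the shortest to the longest of 3 equal classes of median transcript length, so this length did not order it. By 1 or more, 138 genes (7.49%) were higher in round 2 and 156 (8.46%) lower. Subtraction of the median places equal numbers of genes above and below 0, so the balance of these 2 counts is no result. With no overlap between rounds in addition, 13 (0.705%) were higher and 6 (0.326%) lower.

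Of the 13, 10 were named by the rule used here, ECT2 among them, which is described with the cell cycle. HNRNPD, the AU-rich element binding protein AUF1, had 217, 131, 290.4, 309.5 and 253 FPKM in round 2 and 109, 114, 75.2, 55.3 and 116 FPKM in round 1, a centred difference of 1.16. DNAJC8, a splicing-associated J-domain protein, had 255, 226, 447, 376 and 165 FPKM in round 2 and 129.5, 155, 125, 48.8 and 42.2 FPKM in round 1, a centred difference of 1.47. PLRG1, a subunit of the spliceosome's NTC complex, had a centred difference of 1.39. HDAC2, a class I histone deacetylase, had 52.6, 36.6, 78.3, 40.7 and 47.2 FPKM in round 2 and 23.6, 10.3, 23.4, 15.2 and 23.2 FPKM in round 1, a centred difference of 1.21. HMGN3, a nucleosome-binding protein, had 406, 152, 133, 239 and 206 FPKM in round 2 and 130, 75.95, 108, 2.35 and 94.7 FPKM in round 1. Its difference of 2.04 before centring was 1.06 without round 1 replicate 14. NDUFB8, a subunit of respiratory complex I, had 792, 793, 1360.3, 855 and 1275 FPKM in round 2 and 703, 726, 229, 293 and 349 FPKM in round 1. SFT2D1, HDDC3 and POLR1C had centred differences of 1.73, 1.34 and 2.72.

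Of the genes lower in round 2 in this set, S100A13, a calcium-binding protein that takes part in export of leaderless growth factors, had 120.2, 31.9, 57.03, 96.3 and 89.02 FPKM in round 2 and 434, 197, 264, 221 and 455 FPKM in round 1, a centred difference of -2.21. CRIP1, a small LIM protein, had 296, 207, 150.1, 99.9 and 159 FPKM in round 2 and 758, 317, 335, 306 and 1199.6 FPKM in round 1, a centred difference of -1.70. DSTN, the actin-severing protein destrin, had 735, 459.8, 775, 264 and 689.8 FPKM in round 2 and 1810.2, 1171, 1160, 1165 and 991 FPKM in round 1, a centred difference of -1.35. APLP2, a relative of the amyloid precursor protein, had 116, 105, 165, 115 and 20.3 FPKM in round 2 and 224, 299, 185, 245 and 175 FPKM in round 1, a centred difference of -1.52. SCAND1 had 26.04, 56.95, 47.95, 67.7 and 59.6 FPKM in round 2 and 226, 234, 96.4, 178 and 77.3 FPKM in round 1. All 10 cells had at least 20.3 FPKM of each of these 5 genes.

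Late cell cycle genes had the highest median difference of the 35 gene lists. Of 59 genes of G2 and mitosis that passed the filter, of 60 in the list, 49 were higher and 10 lower in round 2, where 31.5% of all genes were higher. Past 2, 14 (23.7%) were higher and 0 lower, against 1.84% and 13.7% of all genes. The list's median difference was 1.25, against -0.59 over all genes, and it was 1.25 with the shared floor, where the median of all genes was -0.16. In the 14 members detected in all 10 cells the centred median was 1.05, with 12 higher and 2 lower. Only ECT2, a guanine nucleotide exchange factor of cytokinesis, had rounds that did not overlap, with 86.6, 110, 188, 97.3 and 204 FPKM in round 2 and 48.99, 14.9, 46.5, 50.6 and 39.9 FPKM in round 1. An empty raft of round 1 held 102 FPKM of it.

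Single cells within each round spread widely in the level of this programme. The mean log2 level of the 59 genes was 6.61, 4.26, 4.33, 3.21 and 6.48 in round 2 cells (4.98 ± 1.497, SD, n = 5), against 5.33, 2.72, 4.65, 1.47 and 4.45 in round 1 cells (3.72 ± 1.59, SD, n = 5). The difference between the rounds was smaller than either SD. Without round 1 replicate 14 the round 1 mean was 4.29 ± 1.11, the median difference 0.86, and 44 members were higher and 15 lower, with 6 higher and 2 lower past 2. Of all 9330 genes without that replicate, 2844 were higher and 6486 lower, 170 and 1366 of them past 2. Members detected numbered 58, 44, 45, 34 and 57 in round 2 and 55, 38, 53, 21 and 50 in round 1, whereas for all genes every round 2 cell had fewer than every round 1 cell. Bulk libraries had levels of 5.27 to 5.80, below the 2 highest cells. Round 2 replicates 2 and 8 and round 1 replicate 9 were the highest cells of their rounds.

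The kinases and cyclins of mitotic entry showed this pattern. CCNB1, cyclin B1, had 971, 419.8, 277, 42.1 and 527 FPKM in round 2 and 204, 41.2, 46.1, 16.6 and 67.4 FPKM in round 1, a difference of 2.47. PLK1, whose promoter is printed above, had 507, 37.9, 68.5, 31.5 and 280.1 FPKM in round 2 and 32.1, 0, 50.6, 0 and 0 FPKM in round 1, a difference of 4.56. For both genes the 2 rounds overlapped, through round 2 replicate 6 for CCNB1 and through round 1 replicates 9 and 13 for PLK1. CCNB2, the other B-type cyclin, had 242, 123, 101, 0 and 257 FPKM in round 2 and 150.4, 0, 31.4, 0 and 14.2 FPKM in round 1. CDK1, their catalytic partner, had 455, 89.3, 432, 29.8 and 389 FPKM in round 2 and 326, 108, 98.3, 19.9 and 134 FPKM in round 1, a difference of 0.89 that was 0.32 without round 1 replicate 14. TOP2A and MKI67, common proliferation markers, differed by 0.88 and -0.95, and by 0.25 and -1.75 without that replicate. With each library left out in turn, CDK1 ranged from 0.32 to 1.53, TOP2A from 0.22 to 2.11 and MKI67 from -1.75 to -0.38.

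Genes of chromosome segregation and mitotic exit followed. UBE2C, the E2 enzyme that works with the anaphase-promoting complex, had 1981, 835, 439, 362 and 1647 FPKM in round 2 and 1655, 123, 150.1, 0 and 357 FPKM in round 1, a difference of 3.05 that was 1.38 without round 1 replicate 14. PTTG1, securin, had 586, 499.7, 170.3, 329 and 1093 FPKM in round 2 and 376, 256, 81.04, 0 and 38.5 FPKM in round 1, a difference of 3.16 that was 1.75 without that replicate. CKS1B, a small subunit of cyclin-dependent kinases, had 2202, 782, 1416, 813 and 1065 FPKM in round 2 and 1069, 184, 275, 74.3 and 206 FPKM in round 1. CDCA8, a chromosomal passenger protein also called borealin, had 240, 30.4, 49.2, 14.3 and 150.3 FPKM in round 2 and 22.02, 6.79, 8.93, 0 and 23.2 FPKM in round 1. AURKB, the kinase of that complex, was at 24.9, 205, 0, 35.5 and 164 FPKM in round 2 and 99.2, 7.71, 0, 0 and 18.1 FPKM in round 1, a difference of 2.18 that was 3.43 without round 2 replicate 5. In each of these genes the round 1 cells with a value of 0 or the lowest value included replicate 14.

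Replication genes did not share this direction. Of 59 G1/S genes, 24 were higher and 35 lower in round 2, with a median of -0.50, close to the -0.59 of all genes. Their mean log2 level was 2.97, 3.20, 4.19, 4.91 and 4.26 in round 2 (3.91 ± 0.80, SD, n = 5), against 4.55, 4.76, 5.53, 1.33 and 5.50 in round 1 (4.33 ± 1.74, SD, n = 5). The outcome rested on round 1 replicate 14. Without it the round 1 level was 5.09 ± 0.51, the median -1.07, and 7 members were higher and 52 lower, with none higher and 13 lower past 2. Of all 9330 genes without it, 2844 were higher and 6486 lower, 170 and 1366 of them past 2, with a median of -0.64. Without round 1 replicate 15 the median of the 59 genes was instead -0.02.

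PCNA, the sliding clamp of DNA polymerases, was at 0, 0, 384, 113 and 106 FPKM in round 2 and 361, 437, 516, 38.9 and 429 FPKM in round 1. TYMS, thymidylate synthase, was at 0, 0, 0, 8.61 and 75.4 FPKM in round 2 and 29.6, 48.9, 39.4, 0 and 36.5 FPKM in round 1. MCM4, a subunit of the replicative helicase, was at 14.1, 0, 61.5, 0 and 13.8 FPKM in round 2 and 31.7, 49.6, 97.3, 10.8 and 88.2 FPKM in round 1. The lowest values of all 3 genes in round 1 were those of replicate 14, and round 2 cells at 0 were 2 for PCNA, 3 for TYMS and 2 for MCM4. RRM2, the regulated subunit of ribonucleotide reductase, differed by 0.75, and by -0.61 without that replicate. E2F1, PRIM1, HELLS and UHRF1 had differences of -2.18, -2.55, -2.48 and -2.14. The clamp loader genes RFC2 and RFC3 were the 2 members higher by 2 or more, at 2.07 and 2.01, and at 0.81 and 1.22 without replicate 14. RFC3 was also at 1.22 without round 1 replicate 12. Round 2 replicates 2 and 3 had the lowest replication levels of their round, and replicate 2 had the highest late cell cycle level.

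**Figure D4:**
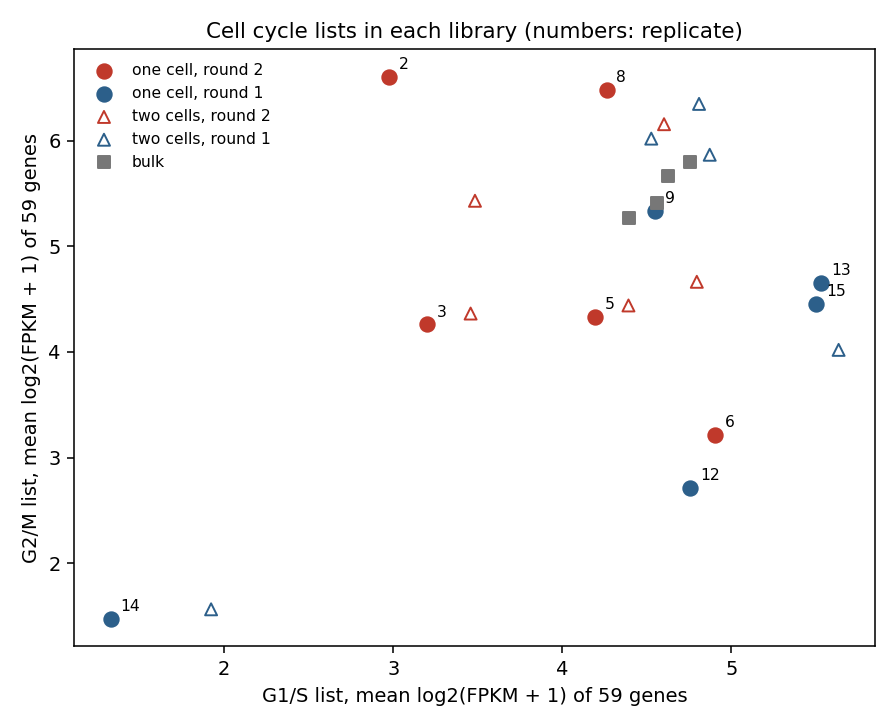
Mean log2(FPKM + 1) of 59 replication genes (x axis) against that of 59 late cell cycle genes (y axis), with circles for the 1-cell raft libraries of round 2 and round 1, numbered by replicate, triangles for 2-cell rafts and squares for bulk. Round 1 replicate 14 lies low on both axes, at 1.33 and 1.47, and round 2 replicates 2 and 8 are highest for late genes, at 6.61 and 6.48.

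NF-kB genes had a median further down in round 2 than that of all genes. Of 19 cytokine and inhibitor genes that passed the filter, of 31, 6 (31.6%) were higher, as were 31.5% of all genes, and 13 lower. Past 2, 0 were higher and 8 (42.1%) lower, against 13.7% of all genes lower. The median was -1.74, against -0.59 over all genes. With the shared floor the median was -0.89, against -0.16. Some members, such as CXCL2 and TNFAIP2, passed the filter through round 1 cells alone. With every gene above 0 in at least 1 library kept, the median was -1.11, against -0.43 over all genes. After quantile normalization it was -1.11, against -0.16. The mean log2 level was 1.195, 1.92, 1.83, 0.62 and 1.64 in round 2 (1.44 ± 0.54, SD, n = 5), against 2.49, 2.86, 2.68, 3.81 and 5.15 in round 1 (3.40 ± 1.11, SD, n = 5). All round 2 cells were below all round 1 cells. The same held for the mean over all 9330 genes, at 2.72 to 3.17 in round 2 and 3.33 to 3.75 in round 1. With the shared floor the NF-kB levels still did not overlap, at 2.29 to 3.12 in round 2 and 3.21 to 5.28 in round 1, while those of all genes did, at 3.59 to 3.82 in round 2 and 3.77 to 4.07 in round 1. Of the 19 genes, 0 were detected in all 10 cells, so none can be compared without values below detection. The list's bulk level was 3.23 to 3.91 before flooring.

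Besides LCN2, the inhibitor gene NFKBIA was at 0, 146, 15.9, 0 and 0 FPKM in round 2 and 97.3, 193, 53.7, 185 and 434 FPKM in round 1, with overlap through round 2 replicate 3. The neutrophil chemokine CXCL2 was listed at 0 in every round 2 cell and at 0, 57.6, 42.8, 84.2 and 108 FPKM in round 1. CXCL1, its close relative, was at 0, 0, 0, 0 and 45.7 FPKM in round 2 and 30.97, 3.74, 13.6, 419 and 324 FPKM in round 1. Sequences of the CXC family are alike, and how reads shared by such copies were assigned is not recorded. TNFAIP2 was listed at 0 in all of round 2 and at 19.2, 3.7, 0, 63.95 and 38.8 FPKM in round 1. C3, the central complement component, was likewise at 0 in round 2 and at 12.7, 0, 37.2, 38.5 and 0 FPKM in round 1. PTGS2, the inducible cyclooxygenase, was at 0, 0, 19.1, 2.52 and 0 FPKM in round 2 and 13.1, 0.92, 18.2, 28.5 and 77.6 FPKM in round 1. SOD2, mitochondrial superoxide dismutase, differed by -3.28. Round 1 replicates 14 and 15 had the highest NF-kB levels, and without replicate 14 the list's median was -1.97.

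Secreted factors and matrix genes also had medians below that of all genes. Of 22 secreted factors and proteases, 4 (18.2%) were higher and 18 lower in round 2, where 31.5% of all genes were higher, with a median of -1.39, or -1.21 with the shared floor. Past 2, 3 (13.6%) were lower, a share like the 13.7% of all genes. Their mean log2 level was 3.17, 3.84, 5.08, 3.55 and 2.07 in round 2 (3.54 ± 1.09, SD, n = 5), against 4.81, 4.85, 5.03, 4.43 and 5.67 in round 1 (4.96 ± 0.45, SD, n = 5). Round 2 replicate 5 reached the level of round 1. MMP7, matrilysin, was at 539.8, 97.02, 634, 61.9 and 0 FPKM in round 2 and 2454, 553, 2279, 6223 and 1128 FPKM in round 1. PLAT, tissue plasminogen activator, was at 0, 0, 0, 37.9 and 0 FPKM in round 2 and 0, 21.4, 323, 8.02 and 379 FPKM in round 1. Round 1 replicate 14 had the highest MMP7 value of all 10 cells.

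Of 15 mesenchymal and matrix genes, 3 (20%) were higher and 12 lower in round 2, with a median of -1.32, and 4 (26.7%) were lower past 2. The mean log2 level was 3.35 ± 0.54 in round 2 and 4.58 ± 0.63 in round 1 (SD, n = 5 each). TGFBI, an extracellular adhesion protein induced by TGF-beta, was at 65.8, 55.8, 71.9, 33.7 and 0 FPKM in round 2 and 343, 211, 747, 216 and 548 FPKM in round 1, with no overlap. VIM, the intermediate filament vimentin, was at 324, 44.4, 365, 421 and 742 FPKM in round 2 and 444, 651, 1189, 523 and 849.9 FPKM in round 1, a difference of -1.30 with overlap that was -0.64 without round 2 replicate 3. The 4 members detected in all 10 cells were all lower, with a centred median of -1.23. FN1, fibronectin, was listed at 0 in round 2 and at 0, 0, 28.1, 236 and 0 FPKM in round 1, so that 1 cell, replicate 14, held most of it. The same cell held 3662 FPKM of FGB, the fibrinogen beta chain, which was at 0 in all of round 2 and at 0 to 4.26 FPKM in the other round 1 cells.

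Of 38 epithelial identity genes, 11 (28.9%) were higher and 27 lower in round 2, where 31.5% of all genes were higher. Past 2, 1 (2.63%) was higher and 9 (23.7%) lower, against 1.84% and 13.7% of all genes. The median was -0.64, against -0.59 over all genes. Without round 1 replicate 14 it was -1.06, against -0.64, and it ranged from -1.06 to -0.38 with each library left out. The keratins KRT18, KRT8 and KRT7 overlapped between the rounds. KRT18 was at 1438, 2593, 956, 1941 and 1236 FPKM in round 2 and 735, 999, 577, 1380.3 and 1501 FPKM in round 1, a difference of 0.66. KRT8 differed by -0.08. KRT7 differed by -0.37, with a range of -1.19 to 1.05 with each library left out. EPCAM, the epithelial adhesion molecule, was at 262, 586, 235, 193 and 80.97 FPKM in round 2 and 368, 604, 196, 87.4 and 453 FPKM in round 1, a difference of -0.32 that ranged from -0.74 to 0.04 with each library left out. MUC1 and AGR2 were among the members lower in round 2. The membrane mucin MUC1 was at 83.7, 7.84, 0, 0 and 0 FPKM in round 2 and 175, 14.2, 152, 316 and 569.7 FPKM in round 1. AGR2, a disulfide isomerase needed for mucin folding, was at 112, 32.6, 205, 0 and 177 FPKM in round 2 and 879, 514, 331, 199.7 and 963 FPKM in round 1, a difference of -3.53 that was -2.18 without round 2 replicate 6. ELF3, an epithelial ETS factor, CEACAM6 and CD24 differed by -4.37, -4.35 and -3.58. MUC16, the CA125 antigen, was at 0 in all of round 2 and at 14.3, 2.63, 9.96, 265 and 27.7 FPKM in round 1.

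Lysosome and autophagy genes had a median of -0.71, against -0.59 over all genes, and -0.47 with the shared floor, against -0.16. Of 44 genes, 12 (27.3%) were higher and 32 lower, a share near the 31.5% of all genes that were higher. In the 20 members detected in all 10 cells the centred median was -0.39, with 8 higher and 12 lower. CTSB, the protease cathepsin B, was at 37.7, 5.85, 0, 14.5 and 0 FPKM in round 2 and 52.8, 36.6, 119.7, 133 and 128 FPKM in round 1. ASAH1, acid ceramidase, was at 10.6, 0, 7.29, 0 and 0 FPKM in round 2 and 32.3, 14.3, 46.8, 62.9 and 57.4 FPKM in round 1, with no overlap. CTSD, cathepsin D, differed by -2.03, and by -0.94 without round 2 replicate 8. The genes ATG5 and GLA, alpha-galactosidase A, were members higher in round 2, by 2.99 and 2.05, the second by 0.69 without round 1 replicate 15.

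Machinery present in every cell was at nearly the same level in both rounds. All 70 cytosolic ribosomal protein genes that passed were detected in every cell, and their mean log2 level was 9.28 ± 0.15 in round 2 and 9.36 ± 0.58 in round 1 (SD, n = 5 each). Against the 0.17 shift of the genes detected throughout, 21 were higher and 49 lower, with a centred median of -0.22. The 32 proteasome genes had levels of 8.18 ± 0.23 in round 2 and 7.92 ± 0.42 in round 1, and 25 were higher and 7 lower, with a median of 0.28. After subtraction of the 0.17 shift, 17 were higher and 15 lower, with a centred median of 0.11. Of 73 respiratory chain and ATP synthase genes 50 were higher and 23 lower (median 0.22), and of 76 mitochondrial ribosomal proteins 50 were higher and 26 lower (median 0.36). Without round 1 replicate 14 these 2 medians were 0.05 and 0.13. Of the 67 respiratory genes detected in all 10 cells, 39 were higher and 28 lower after centring, with a median of 0.07, and of the 48 mitochondrial ribosomal proteins 35 and 13, with a median of 0.28. Splicing factors had 27 higher and 17 lower (median 0.27, or 0.11 without round 1 replicate 14), and translation factors 17 in each direction. EIF3K, a subunit of initiation factor 3, was higher with no overlap, at 377, 241, 266, 344 and 260 FPKM in round 2 and 229, 220.3, 114, 70.6 and 144 FPKM in round 1.

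Most stress and signalling lists had medians on either side of the -0.59 of all genes. The median was -0.58 for 24 genes of the unfolded protein response, -0.52 for 30 interferon-stimulated genes, -0.44 for 22 NRF2 targets, -0.82 for 27 apoptosis regulators and -0.84 for 21 cholesterol synthesis genes. Immediate early genes were at -0.39. Heat shock chaperones stood above the background at 0.15, with 11 (52.4%) higher and 10 lower, where 31.5% of all genes were higher. With each library left out, the medians ranged from -1.01 to -0.26 for the unfolded protein response, -0.73 to -0.16 for interferon-stimulated genes, -1.34 to -0.596 for cholesterol synthesis, -0.46 to 0.04 for immediate early genes and -0.03 to 0.31 for heat shock chaperones. CDKN1A, an inhibitor of cyclin-dependent kinases, was at 38.7, 38.04, 23.6, 0 and 67.3 FPKM in round 2 and 39.1, 38.6, 32.1, 33.4 and 117 FPKM in round 1, with 1 cell of round 2 at 0. FOS was detected in 1 cell of round 1, and ATF3 was listed at 0 in all 10. MYC, an oncogenic transcription factor, differed by -0.39, with a range of -1.59 to 0.72 with each library left out.

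The other lists can be given by their medians. These were -0.22 for 23 genes of glycolysis and hypoxia, -0.38 for 35 genes of actin and adhesion, 0.38 for 12 tubulins, -0.13 for 8 keratins, -0.56 for 8 S100 genes, 0.72 for 4 metallothioneins, 0.17 for 44 genes of ribosome biogenesis, -0.24 for 16 genes of gemcitabine uptake and metabolism and -0.52 for 10 pancreatic cancer drivers. Without round 1 replicate 14 the median was -0.34 for ribosome biogenesis, 0.20 for metallothioneins, -0.47 for gemcitabine genes and 0.03 for keratins. DKC1, the pseudouridine synthase dyskerin, differed by 2.02, and by 0.78 without that replicate. The 10 genes abundant in water and empty rafts were all lower in round 2, with a median of -1.84. One of them, TMEM45A, was at 0, 5.88, 4.5, 2.4 and 0 FPKM in round 2 and 8.79, 10.8, 10.8, 37.9 and 26.98 FPKM in round 1, and at up to 2497 FPKM in an empty raft of round 1 and 0 in those of round 2. The part of carried-over RNA in the differences of the 1-cell rafts was not tested.

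**Figure D5:**
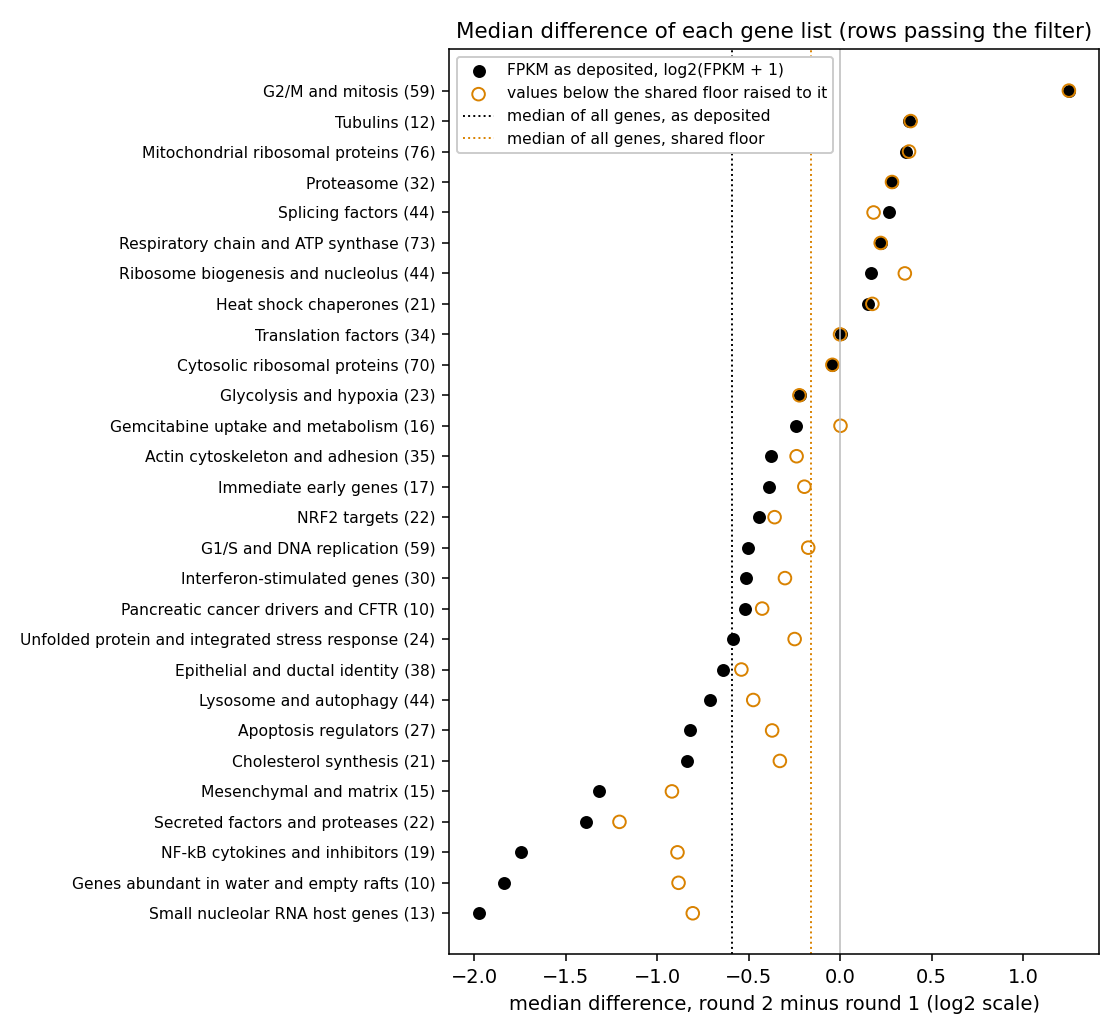
Median difference of log2(FPKM + 1), round 2 minus round 1 (x axis), for the gene lists reported here with at least 10 members that passed the filter (y axis, number of members in brackets), with filled points for FPKM as deposited, open points for values raised to the shared floor and dotted lines for the medians of all genes. The late cell cycle list is highest at 1.25, and the NF-kB list stands at -1.74, against -0.59 for all genes.

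The lists of noncoding and unusual transcripts had medians among the lowest in round 2. Host genes of small nucleolar RNAs, whose spliced transcripts are short-lived, had 3 rows higher and 10 lower, with a median of -1.98, and -0.81 with the shared floor. The median was -1.08 without round 1 replicate 15. SNHG5 was at 0, 38.8, 0, 0 and 13.6 FPKM in round 2 and 73.2, 117, 48.4, 55.3 and 84.8 FPKM in round 1, with no overlap. GAS5 was at 0, 140, 14.7, 112 and 21.5 FPKM in round 2 and 205, 211, 169.6, 69.2 and 107 FPKM in round 1, a difference of -2.66 that was -1.54 without round 2 replicate 2. In the host genes detected in all 10 cells the centred median was 0.01. Of 3 long nuclear RNAs that passed the filter, 1 was higher and 2 lower in round 2, with a median of -2.63. MALAT1, a nuclear-retained long RNA, was at 94.3, 57.5, 49.95, 123 and 0 FPKM in round 2 and 252, 31, 122, 786 and 410.3 FPKM in round 1, a difference of -2.63 that was -1.38 without round 2 replicate 8. NEAT1, the scaffold RNA of paraspeckles, was at 0, 0, 4.21, 0 and 0 FPKM in round 2 and 4.32, 6.84, 32.4, 82.2 and 11.4 FPKM in round 1, with no overlap, though an empty raft of round 1 held 44.7 FPKM.

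Histone genes had a low median in round 2, but not an unusual share of lower members. Of 9 histone genes that passed, of 52 in the list, 3 (33.3%) were higher, near the 31.5% of all genes, and 6 lower, with a median of -1.93. In the 2-cell rafts the list went the other way, with 8 higher and 1 lower and a median of 0.75. HIST2H4A was at 0 in all of round 2 and at 11.3, 33.04, 8.82, 14.3 and 0.36 FPKM in round 1. Replication-dependent histone transcripts carry no poly(A) tail, and the histone genes belong to families of near-identical copies. The 7 MTRNR2L genes, nuclear sequences that resemble mitochondrial 16S RNA, were all lower in round 2. Round 2 replicate 8 was listed at 0 for all of them, as for MTRNR2L2 at 1061, 1014, 984, 838 and 0 FPKM in round 2 and 1907, 1137, 758, 813 and 1743 FPKM in round 1. Its difference of -2.27 was -0.29 without that cell. The median of the 7 genes was -2.36, and it ranged from -2.91 to -1.11 with each library left out.

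The same contrast was available in the 2-cell rafts, which share the inferred rounds of the 1-cell rafts but no cell. Round 2 rafts with 2 cells had 8022 ± 978 genes at 1 FPKM and round 1 rafts 9643 ± 118 (SD, n = 5 each), a difference of -1621 genes, less than the -2597 of single cells. Over the 9330 genes the median difference was -0.29, with 28 genes (0.3%) higher and 263 (2.82%) lower by 2 or more. Spearman rho between the 1-cell and the 2-cell differences was 0.227 across these genes, 0.220 with the shared floor and 0.329 across the 1843 genes detected in all 10 single cells, as a description. Of the 217 genes lower in round 2 single cells with no overlap, 176 (81.1%) were also lower in the 2-cell rafts, where 64.3% of all genes were, and 11 passed 2. Of the 35 higher ones, 23 (65.7%) were higher, where 35.4% of all genes were, and none passed 2. Of the 13 and 6 genes apart among those detected everywhere, 9 (69.2%) and 5 (83.3%) kept their direction, where 56.5% of the 1843 genes were higher and 43.5% lower in the 2-cell rafts.

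The late cell cycle, NF-kB, secreted and mesenchymal lists had medians closer to 0 in the 2-cell rafts than in single cells. Of all 9330 genes, 35.4% were higher and 64.3% lower in the 2-cell rafts, with a median of -0.29. The late cell cycle list had a median of 0.37 there, with 36 genes higher and 23 lower, and its mean level was 5.01 ± 0.77 in round 2 and 4.76 ± 2.01 in round 1 (SD, n = 5 each). CCNB1 and PLK1 differed by 0.75 and 0.91 in the 2-cell rafts, and ECT2 by -0.50. NF-kB genes had a median of -0.95 with 6 of 19 higher and 13 lower, shares near those of all genes. Their levels of 2.999 ± 0.77 in round 2 and 3.87 ± 0.59 in round 1 overlapped. Secreted factors had a median of -0.42 with 3 higher and 19 lower, and mesenchymal genes -0.62 with 1 higher and 14 lower. With the shared floor the late cell cycle and NF-kB medians were 0.12 and -0.34, against -0.08 over all genes. Those of secreted and mesenchymal genes were -0.30 and -0.49. LCN2, TGFBI and MMP7 differed by -0.88, -0.64 and -0.79, and S100A13 by -1.49. GNG11, a G protein gamma subunit at 0 in every round 2 single cell, differed by -3.49. MUC1, SNHG5, POLR1C and SCAND1 had the opposite sign in the 2-cell rafts, at 0.42, 0.25, -0.18 and 0.30. Proteasome genes had 25 higher and 7 lower there too, with a median of 0.26. Some other lists changed sign or lay as far from 0. Metallothioneins were at -1.57, ribosome biogenesis at -0.41, heat shock chaperones at -0.45 and tubulins at -0.24, each opposite in sign to the single cells. The 7 MTRNR2L genes, all lower in single cells, had 4 higher and 3 lower and a median of 0.05. Glycolysis genes were at -0.33, immediate early genes at -0.57, respiratory chain genes at 0.26 and mitochondrial ribosomal proteins at 0.37, each as far from 0 as in single cells or farther.

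Libraries within a round were no more alike in round 2 than libraries of different rounds. Across all rows, the mean Spearman rho was 0.632 over the 10 pairs within round 2, 0.709 over the 10 pairs within round 1 and 0.632 over the 25 pairs between rounds. Without round 1 replicate 14 it was 0.728 within round 1 (6 pairs) and 0.645 between rounds (20 pairs). In the genes detected in all 10 cells it was 0.720 within round 2, 0.754 within round 1 (0.794 without replicate 14) and 0.713 between rounds (0.734 without it). Pairs share libraries and the correlations run across genes, so they carry no test. The Spearman correlation with the mean of bulk was 0.643 ± 0.025 in round 2 and 0.677 ± 0.056 in round 1 (SD, n = 5 each).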

How the data were processed

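CFPAC-1 cells were sequenced as RNA in 120 libraries, of which the 10 from 1-cell rafts are compared here. The authors deposited 1 table of FPKM values with 30504 rows and 120 columns. That its values are FPKM was read from the table itself, since they have decimals and no label names the unit. RSEM and hg19 are named in the submitters' processing notes, and the SMARTer and Nextera XT kits in the labels' protocols. No column of per-sample values was left unused (0). Depth is not in the files, so its effect on detection could be approached only through the lowest values. KRT19, HSPA1A, ACTB and GAPDH are not analysed here.

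Replicate and cell numbers came from the labels, and rounds were inferred from the names of the sets. Index pairs repeat between the sets, so the rounds were treated as separate library pools. A test was not made, because each library is 1 cell and the labels name no culture. Values were transformed to log2(FPKM + 1), and rows at 1 FPKM or more in at least 3 of the 10 libraries were kept (9330, of which 342 carry a name that stands on several rows). A floor per library was the 5th percentile of values above 0 multiplied by transcript length, matched for 89.4% of these rows. The length was the median over the gene's transcripts in GENCODE release 29, which may differ from the length behind the FPKM. GENCODE lengths refer to a different genome build, and only lengths were used. Comparisons with the shared floor were added after the data had been seen. Promoters came from RefSeq GRCh38.p14, and both strands were searched.

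The members and the 35 gene lists were chosen with earlier results of these data known. Genes were named by these rules: the 10 largest differences in each direction past 2 with no overlap, the 10 largest in each direction among genes in all 10 libraries with no overlap, up to 4 such members per list, a fixed set of markers, and the 10 widest detection gaps in each direction. Names on several rows, pseudogenes and noncoding or unmatched names were left out of these rules. Every other gene named, such as UBE2C, MMP7 or NFKBIA, was chosen after its values were seen. Alternatives were other pseudocounts (0.1 and 10), thresholds, filters and scalings, and leaving out each library. The scripts were tested on simulated data. Analysis used pandas 2.3.3 and numpy 2.4.6 under Python 3.11.15, figures used matplotlib 3.10.9, and rank correlations used scipy 1.17.1. Some genes and 1 of the gene lists are not reported here.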

Additional observations from a re-analysis of the deposited data

Results flagged for a closer look

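In each round, a library was marked where its gap to the nearest other library was large against the range of its 5 libraries, by Dixon's criterion. Chance marks about 1 in 20 groups, and 10 of 144 groups checked (6.94%) were marked. Round 1 replicate 14 was marked for its mean Spearman rho with its own round across genes detected in all 10 cells, 0.695, where the others had 0.762 to 0.774. It was also marked for its mean log2 level of replication genes, 1.33, where the others had 4.55 to 5.53. Its HMGN3 value of 2.35 FPKM stood under 75.95 to 130.0 FPKM in the other round 1 cells.

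Round 2 replicate 5 had a mean log2 level of 4.75 for glycolysis and hypoxia genes, under 5.76 to 6.001 in the other round 2 cells. Round 2 replicate 3 had a level of 4.89 for epithelial genes, above 3.38 to 3.71 in the others. Round 2 replicate 8 was listed at 0 for every MTRNR2L gene, where the others had mean log2 levels of 5.13 to 6.47. The same cell had 20.3 FPKM of APLP2, under 105 to 165 FPKM in the other cells of its round, and 96.7 FPKM of POLR1C, under 183 to 228 FPKM. Round 1 replicate 9 had 1810.2 FPKM of DSTN, above 991 to 1171 FPKM in the other round 1 cells. Round 1 replicate 12 had 14.9 FPKM of ECT2, under 39.9 to 50.6 FPKM. Opposite directions in every 1-cell and every 2-cell raft were looked for in 65 measures, and none was found.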

How the results depend on the processing

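The difference of -2597 genes detected per cell was -3771 counting any value above 0, -1448 at 5 FPKM, -851 at 10 FPKM, -1518 at the shared floor and -775 at 3 times that floor. It ranged from -2760 to -2430 with each library left out. The median difference of -0.59 was -1.25 with a pseudocount of 0.1, -0.15 with 10, -0.16 after quantile normalization and -0.16 with the shared floor. It turned to 0.17 in genes detected in all 10 libraries, a filter that removes every missing value. It ranged from -0.65 to -0.52 with each library left out. Under these settings in the same order, the 172 genes higher by 2 or more numbered 404, 12, 280, 75 and 11, and the 1280 lower ones 3466, 48, 711, 324 and 6, with leave-one-out ranges of 162 to 237 and 1194 to 1481. Genes with rounds that do not overlap numbered 19 higher and 6 lower in the filter on all 10 libraries, and 56 higher and 128 lower after quantile normalization. Leaving out a library eases that criterion, since fewer cells must be apart, and the counts ranged from 44 to 71 higher and from 248 to 366 lower. For genes detected in all 10 libraries the counts of 13 and 6 ranged from 18 to 33 and from 7 to 19, and the 6 lower genes were 10 after quantile normalization. The 35 higher genes became 60 to 71 without any 1 round 2 replicate or round 1 replicate 9 or 12, and the 217 lower ones 333, 366 and 360 without round 2 replicate 3 or round 1 replicates 9 or 12. The 13 became over 1.5 times as many without any library but round 1 replicate 15, and the 6 without any but round 1 replicates 13 and 15. The medians of the lists ranged, with each library left out, from 0.86 to 1.74 for late cell cycle genes, -1.07 to -0.02 for replication genes, -2.50 to -1.50 for NF-kB genes and -1.71 to -0.998 for secreted factors. The NF-kB median was -3.02 with a pseudocount of 0.1 and -0.54 with 10, and the secreted median -0.55 with 10. In genes detected in all 10 libraries, 4 lists changed sign before centring: cholesterol synthesis (0.12), apoptosis (0.39), small nucleolar RNA host genes (0.19) and histones (0.65). The cause of these changes was not tested. No paired analysis was possible because the rounds share no replicate number. Single cells without counts limit what can be told at low FPKM, where a value of 0 may be a missed transcript.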
